A study of Mus musculus with 3 samples.

Results

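EZH2 binding was described at the 7 mouse genes that encode cyclin-dependent kinase (CDK) inhibitors, namely Cdkn1a, Cdkn1b, Cdkn1c, Cdkn2a, Cdkn2b, Cdkn2c and Cdkn2d. The genes were chosen by family, out of 21883 protein-coding genes in the RefSeq table of mm10, and not by a cutoff on their signal. Earlier results of these data were known when the family was chosen. Every EZH2 interval that met the window from 10 kb before to 10 kb after a gene was taken. Cdkn2a and Cdkn2b, whose windows overlap, are treated as 1 locus. The cells were macrophages grown from the bone marrow of adult C57BL/6 mice in M-CSF conditioned medium. They were left without treatment (NT) or received lipopolysaccharide (LPS), a bacterial cell wall component, for 2 h. Each condition had 1 EZH2 chromatin immunoprecipitation library, and the number of mice behind each is not stated in the sources used here, so no value below has a replicate or a test. The remaining sample, input DNA from the same kind of cells, was not used here.

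CDK inhibitors hold back the cell cycle. The INK4 proteins, from the Cdkn2 genes, bind CDK4 and CDK6 and keep them from pairing with D-type cyclins, and the CIP/KIP proteins, from the Cdkn1 genes, act on a wider range of cyclin-CDK complexes. EZH2 is the enzyme of polycomb repressive complex 2, which methylates histone H3 at lysine 27, and the Cdkn2a and Cdkn2b locus is a textbook polycomb target that is held silent in young dividing cells. Polycomb complex 2 is known to sit preferentially at stretches rich in unmethylated CpG dinucleotides, called CpG islands.

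The promoters show how the family members differ in this sequence property. The RefSeq promoter table used here (GRCm38.p6, the assembly of mm10) held 9 start sites for 6 of the 7 genes, all but Cdkn1c. The 250 bases before 7 of these starts are printed here 5′ to 3′ on the strand of the gene, with each CpG in capitals. They include the 4 starts under intervals of both libraries, Cdkn1b as a start under an NT interval alone, and the upstream Cdkn1a start and Cdkn2d as starts under none. The Cdkn2c starts, 1 under an NT interval alone and 1 under none, are described without their sequence.

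Cdkn2a, upstream start, chr4:89294620-89294869, minus strand: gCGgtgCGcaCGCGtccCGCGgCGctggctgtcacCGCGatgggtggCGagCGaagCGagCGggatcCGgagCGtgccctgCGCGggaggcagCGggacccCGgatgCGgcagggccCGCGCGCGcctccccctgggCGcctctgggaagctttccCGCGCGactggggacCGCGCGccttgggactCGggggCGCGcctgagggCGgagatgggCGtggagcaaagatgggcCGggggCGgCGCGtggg
Cdkn2a, downstream start, chr4:89282193-89282442, minus strand: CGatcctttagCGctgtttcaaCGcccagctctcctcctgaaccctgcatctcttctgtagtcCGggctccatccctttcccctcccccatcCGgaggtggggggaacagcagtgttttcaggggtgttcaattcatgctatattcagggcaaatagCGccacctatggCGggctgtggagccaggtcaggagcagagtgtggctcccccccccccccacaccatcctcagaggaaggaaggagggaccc
Cdkn2b, chr4:89311033-89311282, minus strand: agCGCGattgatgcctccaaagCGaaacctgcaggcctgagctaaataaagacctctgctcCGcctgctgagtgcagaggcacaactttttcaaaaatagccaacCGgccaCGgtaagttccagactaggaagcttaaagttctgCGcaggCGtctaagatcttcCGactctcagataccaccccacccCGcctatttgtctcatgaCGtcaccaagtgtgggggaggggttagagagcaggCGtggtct
Cdkn1a, downstream start, chr17:29093519-29093768, plus strand: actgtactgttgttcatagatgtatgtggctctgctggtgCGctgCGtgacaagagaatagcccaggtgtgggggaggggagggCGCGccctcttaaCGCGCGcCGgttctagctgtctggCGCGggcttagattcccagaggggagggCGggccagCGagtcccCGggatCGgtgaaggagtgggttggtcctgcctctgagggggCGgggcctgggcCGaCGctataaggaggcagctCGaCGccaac
Cdkn1a, upstream start, chr17:29090729-29090978, plus strand: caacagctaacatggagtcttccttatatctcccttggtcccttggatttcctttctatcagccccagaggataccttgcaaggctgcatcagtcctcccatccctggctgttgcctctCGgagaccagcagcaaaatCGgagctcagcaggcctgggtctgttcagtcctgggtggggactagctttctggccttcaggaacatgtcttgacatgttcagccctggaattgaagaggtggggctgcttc
Cdkn1b, chr6:134920151-134920400, plus strand: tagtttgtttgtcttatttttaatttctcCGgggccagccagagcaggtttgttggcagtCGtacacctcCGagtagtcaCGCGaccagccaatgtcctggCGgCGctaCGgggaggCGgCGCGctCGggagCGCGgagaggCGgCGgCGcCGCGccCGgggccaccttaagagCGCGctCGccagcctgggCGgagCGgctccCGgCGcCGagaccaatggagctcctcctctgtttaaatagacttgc
Cdkn2d, chr9:21291210-21291459, minus strand: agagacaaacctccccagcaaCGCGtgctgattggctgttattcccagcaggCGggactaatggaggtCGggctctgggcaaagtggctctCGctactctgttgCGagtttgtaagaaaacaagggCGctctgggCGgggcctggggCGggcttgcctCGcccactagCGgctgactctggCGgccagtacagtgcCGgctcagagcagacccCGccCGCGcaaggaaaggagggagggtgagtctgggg

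In the promoter of 300 bp (250 bp before to 50 bp after the start), the upstream Cdkn2a start had 45 CpG, more than nearly all promoters (percentile 97.9 of 21262). The downstream Cdkn2a start had 12, close to the median of 13 over all promoters. Cdkn2b had 18, the downstream Cdkn1a start 23, Cdkn2d 22 and Cdkn1b 30, and the upstream Cdkn1a start had 2. At Cdkn2c the upstream start had 33 and the downstream start 8. CpG content alone did not separate the members with an interval from those without, since the Cdkn2d promoter, with no interval, had nearly as many as the downstream Cdkn1a promoter, with intervals of both libraries.

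In all, 6 of the 7 genes had an NT interval in the window, where 46.0% of all protein-coding genes had one. An LPS interval was there at 4 of the 7, against 21.2% of all. Cdkn1a, Cdkn1c, Cdkn2a and Cdkn2b had both (20.6% of all genes), Cdkn1b and Cdkn2c had NT intervals alone (25.4% of all), and Cdkn2d had neither (53.3% of all). Counted by locus, NT intervals were found at 5 of 6 and LPS intervals at 3 of 6. Among the genes with an interval in the window, the median of the highest value was 38.5 in NT and 21.5 in LPS for the family, and 29 and 18 for all genes. At Cdkn1b and Cdkn2c the highest NT values, 33 and 36, lay outside the gene, and the interval on each gene had 25. The value is a deposited whole number at the summit of each interval, called the summit value here. Its unit, the read depth and any scaling between the libraries are not stated in the sources used here, so values are compared mainly within a library.

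**Figure D1:**
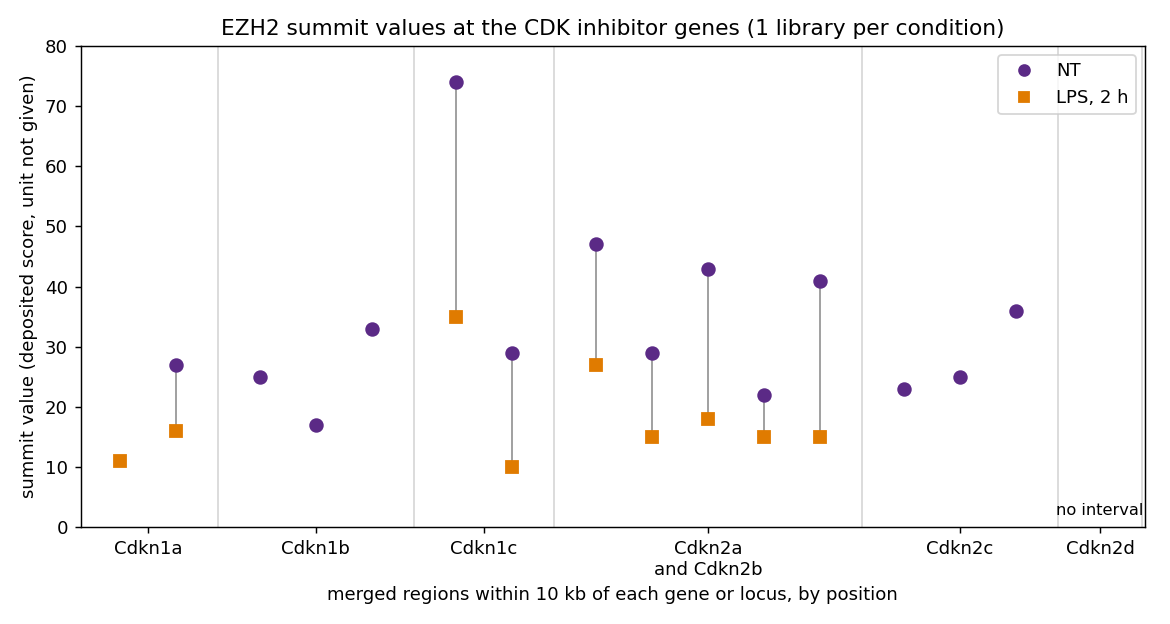
Summit value (vertical axis, deposited score) of each merged region within 10 kb of a CDK inhibitor gene, with circles for NT and squares for LPS and a line joining the 2 values of a region found in both (1 library per condition). Values are highest over Cdkn1c (74 in NT and 35 in LPS), Cdkn1b and Cdkn2c have NT values alone, and Cdkn2d has no interval.

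The windows held 14 NT and 9 LPS intervals, which fell into 15 merged regions. Of these, 8 had an interval in both libraries, 6 in NT alone and 1 in LPS alone. The NT intervals with an LPS partner had summit values from 22 to 74 and those without had 17 to 36, so the 2 sets overlapped. Over the whole genome, 43.2% of NT intervals met an LPS interval.

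The Cdkn2a and Cdkn2b locus had the most intervals of the family, 5 in NT and 5 in LPS, and each NT interval met an LPS interval. Cdkn2a lies on chromosome 4 from 89274473 to 89294619 and encodes 2 unrelated proteins from 2 starts. The upstream start gives the transcript of ARF, which stabilises p53, and the downstream start that of the CDK inhibitor INK4A. Cdkn2b, from 89306289 to 89311032, encodes INK4B. The intervals were separate, with a width from 1003 to 5357 bp in NT, and lay at the starts and at or near the 3′ ends.

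The ARF start was covered from 89293748 to 89296023 in NT (43) and from 89294038 to 89296104 in LPS (18). The NT summit lay 550 bp before the start and the LPS summit 314 bp after it. The CpG-rich stretch printed for this start lies inside both intervals.

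The INK4A start was covered from 89281156 to 89282960 in NT (29) and from 89281581 to 89283098 in LPS (15). Both summits lay next to the start, 63 bp after it in NT and 28 bp before it in LPS. This was so although the promoter of 300 bp at this start had 12 CpG, a count near the median. In the range from 11 to 15 CpG, 38.6% of all promoters lay under an NT interval and 15.1% under an LPS interval. The 250 bases printed for this start hold 7 CpG.

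The widest interval of the locus, and its highest value, lay not at a start but over the 3′ end of Cdkn2a and beyond it. It ran from 89272104 to 89277460 in NT (47) and from 89272125 to 89278272 in LPS (27), where it was 6148 bp wide. Its summits were 1824 bp apart, farther than in 99.6% of the 3638 regions with exactly 1 interval per library, whose median distance was 112 bp. That set was not matched for width. The merged region here spanned 6169 bp, where the median interval was 1305 bp in NT and 1472 bp in LPS. In the same set, an LPS interval was at least as wide as the NT interval in 19.0% of regions, and this region was among them, with a covered ratio of LPS to NT of 1.15.

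At Cdkn2b the start was covered from 89310014 to 89311409 in NT (41) and from 89310235 to 89311262 in LPS (15), with summits 327 and 391 bp after the start. A weaker pair lay near the 3′ end of Cdkn2b, from 89306603 to 89307605 in NT (22) and from 89306550 to 89307610 in LPS (15). Gm12610, a long non-coding RNA gene from 89295180 to 89518621, spans Cdkn2b, so the intervals at Cdkn2b and at the ARF start also lie on it. The signal cannot be divided between the overlapping genes.

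**Figure D2:**
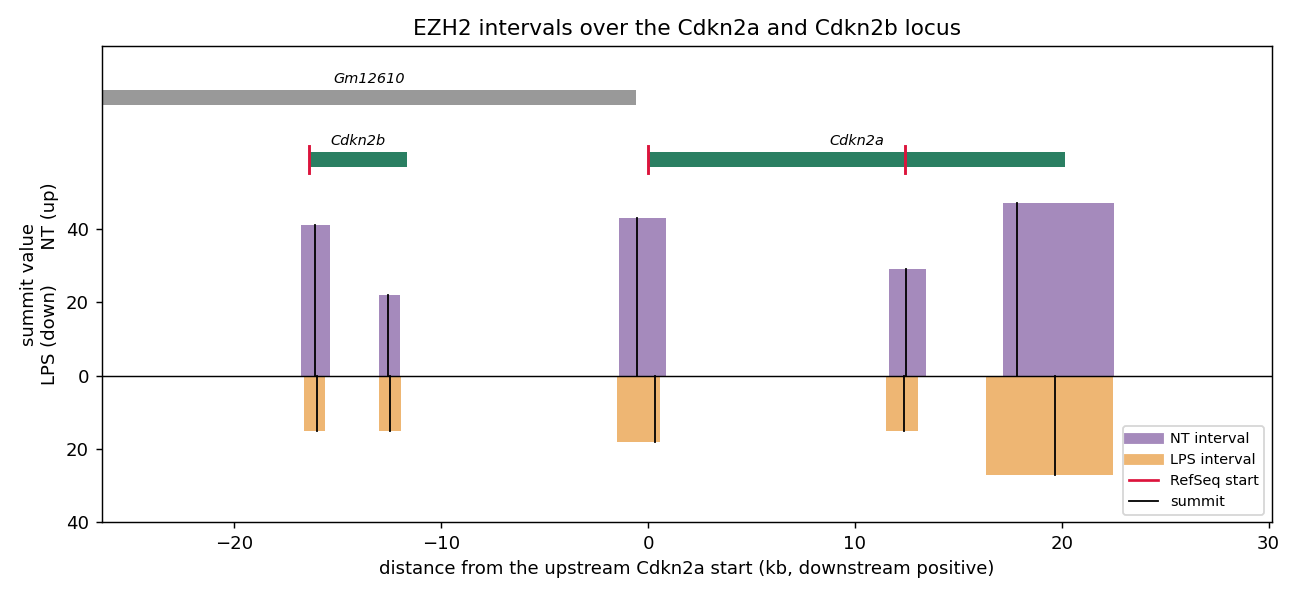
Intervals over the Cdkn2a and Cdkn2b locus, with distance in kb from the upstream Cdkn2a start (downstream positive) on the horizontal axis and the summit value as bar height, NT upward and LPS downward. The 5 NT intervals and 5 LPS intervals coincide, over all 3 starts (red) and at or near both 3′ ends, and black lines mark the summits.

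Intervals covered 11837 bp of the window of this locus in NT and 11822 bp in LPS, a ratio of 0.999. This total joins unlike parts. At the starts the LPS intervals were narrower, with covered ratios of 0.908 (ARF), 0.841 (INK4A) and 0.736 (Cdkn2b). At the 3′ ends they were wider, with 1.15 (Cdkn2a) and 1.06 (Cdkn2b). The median over regions with 1 interval per library was 0.842. Over the whole genome the LPS intervals covered 53.8% as many bases as the NT intervals. Among the 860 genes with a highest NT value from 42 to 52, close to the 47 of this locus, the median ratio of LPS to NT covered bases was 0.701, and 9.3% had a ratio at least as high as the locus. Those are windows of single genes, not matched for the number or width of intervals, where the window here joins 2 genes. This is a description of 2 libraries, since no ratio here has a replicate.

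The summit values of the locus were lower in LPS at all 5 regions, as were nearly all shared regions of the genome, where the median ratio of LPS to NT was 0.5 and the central 90% ran from 0.311 to 0.75. The ratios were 0.574 at the 3′ end of Cdkn2a, 0.517 at the INK4A start, 0.419 at the ARF start, 0.682 at the 3′ end of Cdkn2b and 0.366 at its start. All 5 fell within that central range. The 2 starts with the higher NT values had the lower ratios. Among regions of low NT value, a ratio exists only for those whose LPS value was high enough to be called.

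Among the CIP/KIP genes, Cdkn1c was the member with the highest value in both libraries. It encodes p57KIP2 and is an imprinted gene, expressed mainly from the maternal copy. The gene lies on chromosome 7 from 143458339 to 143461059, and an NT interval from 143458613 to 143461403 (74) and an LPS interval from 143458622 to 143461207 (35) covered nearly all of it. Their ratio of 0.473 lay close to the genome median, with summits 144 bp apart. All 116 NT intervals with a value within 3 of this one had an LPS partner.

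Beyond Cdkn1c, a second pair lay on the non-coding RNA gene Gm33663, from 143463782 to 143466445 in NT (29) and from 143464512 to 143465680 in LPS (10). Its ratio of 0.345 was among the lower ones, above 9.36% of the 4027 shared regions. The LPS interval was 0.439 times as wide as the NT interval, and 3.6% of regions with 1 interval per library had a lower covered ratio. Another strong pair lay just outside the window, 11233 bp from the gene in NT (68) and 11053 bp in LPS (32), on the side of lower coordinates.

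Cdkn1a encodes p21CIP1, the inhibitor through which p53 halts the cell cycle. It lies on chromosome 17 from 29090979 to 29100722, and its 2 listed starts differed. The downstream start, with 23 CpG, was covered from 29093406 to 29095993 in NT (27) and from 29093304 to 29095914 in LPS (16). The upstream start, with 2 CpG, lay under no interval of either library, as did nearly all promoters with up to 5 CpG, of which 1.96% lay under an NT interval.

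At Cdkn1a the ratio was 0.593, higher than in 76.4% of shared regions. Among the 1237 shared regions with an NT value within 5 of it, 26.4% had a ratio at least as high. The intervals were of like width, 2588 bp in NT and 2611 bp in LPS. The NT summit lay 1720 bp after the downstream start and the LPS summit 653 bp after it. The distance of 1067 bp between them was larger than in 97.8% of regions with 1 interval per library, a set not matched for width.

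The single LPS interval of the family without an NT partner also lay in the Cdkn1a window, from 29080843 to 29081503, with a summit 9922 bp before the upstream start. It was weak, with a value of 11 where the LPS list ran from 7 to 100, and it was 1 of 276 LPS intervals without a partner. The nearest annotated gene was Trp53cor1, 1717 bp away, a p53-induced non-coding RNA gene also known as lincRNA-p21. It is named because it lies nearest.

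Cdkn1b and Cdkn2c had NT intervals at their starts and no LPS interval. Cdkn1b encodes p27KIP1, an inhibitor that accumulates in resting cells, and lies on chromosome 6 from 134920401 to 134925525. The NT interval over its start, from 134919576 to 134921589, reached 25 at its summit, which lay 304 bp before the start and so just outside the printed stretch. The highest value in the window, 33, belonged to another interval, from 134927824 to 134928955, which lay beyond the 3′ end of Cdkn1b and 137 bp from the non-coding RNA gene Lockd, named because it lies nearest. The last of the 3, from 134926620 to 134927734, had 17. The nearest LPS interval to Cdkn1b was 398 kb away.

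Cdkn2c encodes INK4C and lies on chromosome 4 from 109660876 to 109666756. The NT interval over its upstream start, from 109665694 to 109667466, reached 25 at a summit 253 bp before the start. The downstream start, with 8 CpG, lay outside it. Here too the highest value of the window, 36, belonged to a neighbour. That interval, from 109675896 to 109677250, covered the start of Faf1, which encodes a FAS-associated factor, and the remaining one (23) met the non-coding RNA gene 9630013D21Rik. The nearest LPS interval was 307 kb from Cdkn2c.

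An NT interval of this height without an LPS partner was common. Of the 2770 NT intervals with a value within 3 of 25, the value at both starts, 30.2% met an LPS interval. Among those of a width from 0.8 to 1.25 times that at the start, the share was 54.3% for Cdkn1b and 44.3% for Cdkn2c. At the Cdkn2a and Cdkn2b locus, the intervals with values of 22 and 29 had partners where 23.6% and 38.7% of NT intervals of like value did, or 14.9% and 56.3% of those of like value and width. For the NT intervals without a partner at Cdkn1b and Cdkn2c, an LPS signal under the calling threshold cannot be told apart from none.

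**Figure D3:**
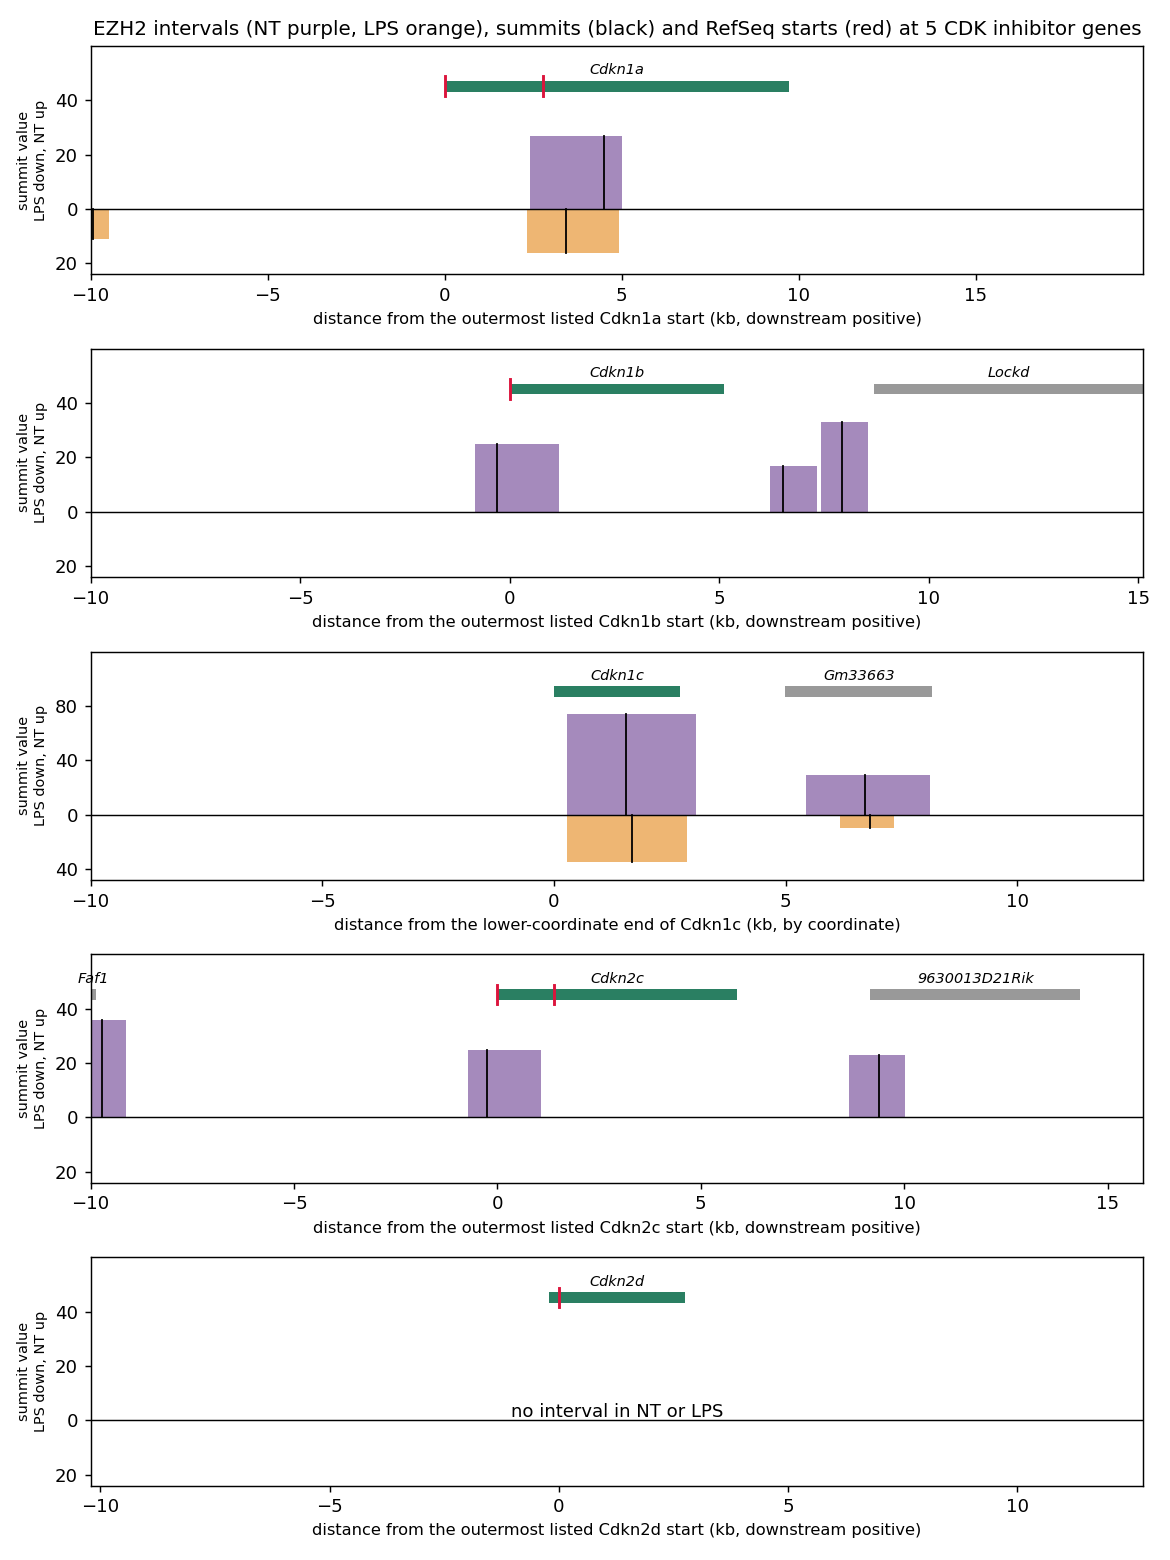
Intervals within 10 kb of Cdkn1a, Cdkn1b, Cdkn1c, Cdkn2c and Cdkn2d, with distance in kb on the horizontal axis and the summit value as bar height, NT upward and LPS downward; red lines are RefSeq starts and grey bars neighbouring genes. The Cdkn1a and Cdkn1c intervals appear in both libraries, Cdkn1b and Cdkn2c have 3 NT intervals each, and the Cdkn2d panel is empty.

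Cdkn2d, which encodes INK4D, lies on chromosome 9 from 21288459 to 21291421 and was the single member with no interval. The nearest NT interval lay 22.5 kb away over the autophagy gene Atg4d (46), and the nearest LPS interval 39.2 kb away (9). Its promoter has 22 CpG, and of all promoters with 21 to 25 CpG, 58.0% lay under an NT interval and 19.7% under an LPS interval. It also had 5 matches to GGGCGG, the core of the GC box, more than any other promoter of the family.

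Over all 9 listed promoters of the family, 6 lay under an NT interval and 4 under an LPS interval, where 32.3% and 11.9% of all promoters did. That comparison was not matched for CpG count, with which both shares rise. GGGCGG, searched on both strands, was found in 7 of the 9 (46.2% of all promoters), and was missing from the upstream Cdkn1a and the downstream Cdkn2c promoter, both without an interval. TATAAA was in none of the 9 (12.6% of all) and CCAAT in 4 of the 9 (38.2% of all). GGGCGG holds a CpG, so its count goes with CpG content.

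**Figure D4:**
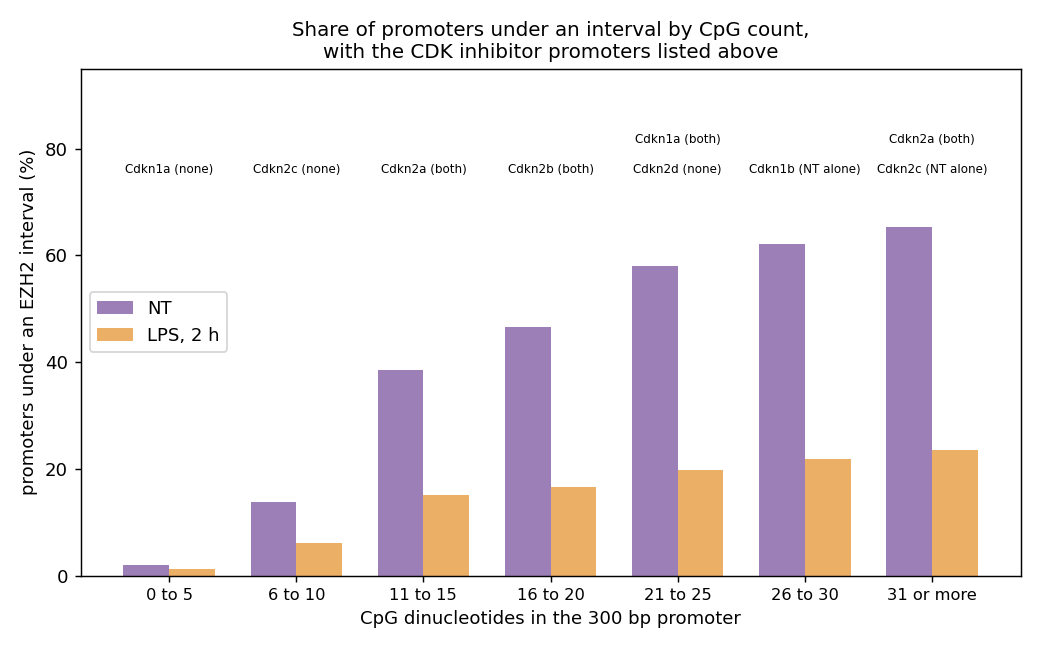
Share of all promoters under an NT or LPS interval (vertical axis, percent) by the number of CpG in the 300 bp promoter (horizontal axis), with the 9 CDK inhibitor promoters named above the bar of their CpG count and marked by the libraries whose interval covers them. The share rises with CpG from 1.96% to 65.3% in NT, and Cdkn2d has no interval in a group where 58.0% have one in NT.

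Ordered by the interval over the gene itself, the NT summit values were 74 at Cdkn1c, 47 at Cdkn2a, 41 at Cdkn2b, 27 at Cdkn1a, and 25 at both Cdkn1b and Cdkn2c. The LPS values had the order Cdkn1c (35), Cdkn2a (27), Cdkn1a (16) and Cdkn2b (15). Without replicates, no neighbours in these orders can be said to differ. The median ratio over the 8 shared regions was 0.495, close to the median of 0.5 over all shared regions.

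**Figure D5:**
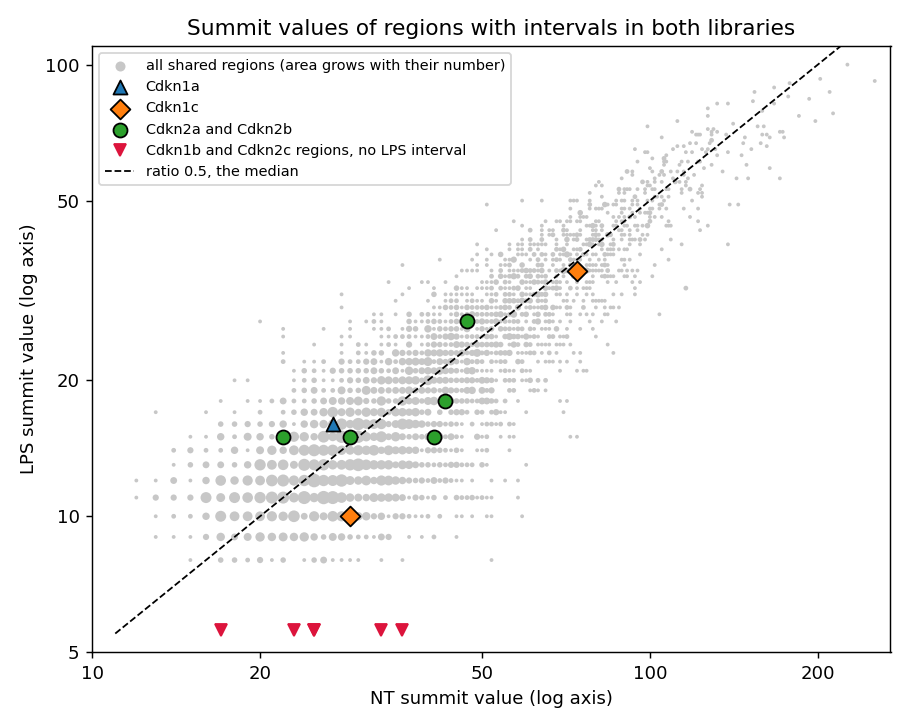
LPS against NT summit value (both log axes) of all 4027 shared regions in grey, with the 8 shared regions of the CDK inhibitor genes marked and the 6 NT values without an LPS interval as triangles at the bottom (2 coincide at 25). The marked regions lie within the grey cloud on both sides of the dashed line at a ratio of 0.5.

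The genes whose values were most like those of a member were found over all protein-coding genes outside the windows, by the summed absolute log2 differences in highest summit value and covered bases of both libraries. For Cdkn2a these were Ncan (47 in NT and 27 in LPS, sum 0.163) and Gad1 (47 and 27, sum 0.278). For Cdkn2b they were Map7 (42 and 15, 0.105) and Cdhr5 (42 and 15, 0.218). For Cdkn1c they were Dgkz (71 and 35, 0.0919) and Cpeb1 (77 and 35, 0.278), and for Cdkn1a Spata13 (28 and 17, 0.27) and Lrrc1 (26 and 16, 0.372). With 1 library per condition this likeness rests on 4 values per gene.

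The other genes of the pathway were taken from 4 lists of 40 genes in all, in the same window of 10 kb. Of the 40, NT intervals lay at 24 and LPS intervals at 12, beside 46.0% and 21.2% of all protein-coding genes, and their median highest values were 25 and 16.5, below the medians of the CDK inhibitor genes and of all genes with an interval. An interval in such a window can belong to a neighbouring gene, as at Cdkn1b and Cdkn2c. On the gene span alone, NT intervals lay at 19 of the 40 genes and LPS intervals at 6, where 38.0% and 16.2% of all protein-coding genes had one. For the CDK inhibitor genes the counts on the gene span were 6 and 4 of 7, as in the wider window.

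Of 9 cyclins, the activating partners of CDKs, 4 had an NT and 3 an LPS interval, the NT share being near that of all genes (46.0% in NT and 21.2% in LPS). With the NT list shortened to the number of LPS intervals, or with the upper part of each list, 2 had an NT interval. No share of all genes is given for those lists. The D-type cyclins, whose pairing the INK4 proteins prevent, all had one in NT, with 68 in NT and 26 in LPS at Ccnd2, 35 and 16 at Ccnd1, and 23 in NT alone at Ccnd3. Ccna1, the germ cell cyclin, had an LPS interval alone (13), as did 0.635% of all genes. Of 8 CDKs and CDC25 phosphatases, which activate them, 5 had an NT and 4 an LPS interval, beside 46.0% and 21.2% of all genes. On the gene span the counts were 3 and 1, where 38.0% and 16.2% of all protein-coding genes had one. Cdk2 had 76 and 40 in its window, Cdc25c 56 and 14, and Cdk4 29 and 22, but none of these values lay on the gene itself. On the gene spans, Cdk2 had 23 in NT alone, and Cdc25c and Cdk4 had no interval.

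Of 13 genes of the Rb and E2F families, through which CDKs control entry into S phase, 7 had an NT and 2 an LPS interval, against 46.0% and 21.2% of all genes. On the gene span the LPS count was 0, where 16.2% of all protein-coding genes had one. It was also 0 with 2.5 kb on each side and with summits inside the window. No share of all genes is given for those 2 settings, so their counts cannot be read as particular to these genes. Rbl1 (46) and E2f4 (35) had NT intervals alone, E2f3 had 29 in NT alone, and Rbl2 had 29 in NT on the gene and 24 in LPS beside it. Of 10 upstream regulators of CDK inhibitors, 8 had an NT and 3 an LPS interval, beside 46.0% and 21.2% of all genes. With the NT list shortened to the number of LPS intervals, the NT count fell to 1, below the LPS count of 3. The share of all genes with the shortened list is not given here, so this fall cannot be read as particular to these genes. The forkhead factor gene Foxo3 (31), Zbtb17 (26) and Foxo1 (23) had NT intervals alone, and Mdm2, whose product degrades p53, had 23 and 17.

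Over the whole series, the NT list held 9643 intervals with summit values from 11 to 253, and the LPS list 4651 with values from 7 to 100. The LPS list was taken from a track that carries TLR in its name, which was matched to the LPS sample as the single stimulated one, and this match limits each LPS value above. EZH2 occupancy does not measure expression, so the macrophage label cannot be checked against markers here. Of 8 macrophage markers, 4 were met in NT and 1 in LPS, and the B cell factor gene Pax5 had values of 111 and 55.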

How the data were processed

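The data were EZH2 ChIP-seq intervals of bone marrow-derived macrophages in 2 conditions, with 1 library each. BWA, SICER and mm10 are named in the submitters' processing notes, without versions or roles. The authors deposited positions in BED coordinates (mm10), which are printed 1-based. The score at each summit is the authors' deposited value, a whole number whose unit, depth and normalization are not stated in the sources used here, and each interval held exactly 1 summit. Overlap was counted from 1 bp, with Python 3.11.15 and pandas 2.3.3, and the overlap code was tested on simulated intervals. Merged regions are unions of overlapping intervals, and all 9785 equalled those of the authors' merged track. A ratio is the highest LPS over the highest NT summit value of a region. Gene spans and promoters came from RefSeq GRCm38.p6. The promoter table matched 6 members, and Cdkn1c has no entry in it.

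Named genes were all members, genes whose span meets an interval in a member window, up to 3 genes per list by NT value with any found in LPS alone, and the 2 genes most like each member with intervals in both libraries. Members and lists were chosen with earlier results of these data known. Alternatives were other windows, interval lists and ways of pairing.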

Additional observations from a re-analysis of the deposited data

How the results depend on the processing

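No paired analysis was possible because NT and LPS had a single library each. Of 51 recomputed values for the CDK inhibitor genes, 47 stayed as reported or, for counts of genes and of covered bases, within 1.5 times. Some of the 47 could not change, such as an LPS count when the NT list alone was shortened, or 0 covered bases in a smaller window. The settings were the gene span alone, 2.5 kb and 20 kb on each side, the upper part of each list, an NT list shortened to the number of LPS intervals, summits inside the window, intervals joined under 2 kb apart and, chosen after seeing the data, intervals over a promoter. The 4 others were covered bases. With 2.5 kb on each side, NT covered 2791 bp at Cdkn1c and 1773 bp at Cdkn2c, and with 20 kb NT covered 9159 bp and LPS 6352 bp at Cdkn1c, since a wider window takes in more intervals by construction. In the upper part of each list (from its median value up), 3 genes had an LPS interval, and Cdkn2b had none. Over promoters, NT intervals lay at 5 and LPS intervals at 3 of the 6 genes in the promoter table. Cdkn1c is not in that table, and each of the other genes had the same calls as in the window. Of 48 counts for the other cell cycle lists, 15 moved by more than 1.5 times. On the gene span, CDK and CDC25 genes had 3 in NT (5 before) and 1 in LPS (4), and Rb and E2F genes 0 in LPS (2), as also with 2.5 kb and with summits inside the window. With 20 kb, upstream regulators had 5 in LPS (3). In the upper part of each list, NT counts were 2 cyclins (4), 4 Rb and E2F genes (7) and 1 upstream regulator (8), and LPS counts 2 CDK and CDC25 genes (4) and 1 Rb and E2F gene (2). With the shortened NT list, NT counts were 2, 4 and 1 for the same lists and 3 CDK and CDC25 genes. Shares of all genes are not given for the upper or shortened lists, for 2.5 kb or 20 kb, or for summits inside the window. Depth is unknown, so no interval or limit could be given for a value.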
